A study of Mus musculus with 67 samples.

Results

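A set of 173 genes was followed that was barely transcribed in mouse intestinal organoids without VPA and EPZ6438 and transcribed in Hyper-organoids. The members were selected on bulk expression values in TPM, transcript abundances scaled to a common total per library: a mean under 1 TPM over the 7 libraries of the ENR condition, a mean under 1 TPM over the 7 libraries of the 8C condition without both compounds (8C-VE), and a mean of 5 TPM or more over the 7 libraries of the 8C condition. Of 29579 genes in the deposited table, 182 met these values and 9 of them were left out by symbol (predicted genes and the families with symbols starting Bex, Arxes, Hox, H2-, Reg or Ldh). The low part of the selection alone, under 1 TPM in both media without the compounds, was met by 9135 genes. The levels in the ENR, 8C-VE and 8C conditions chose the members and are therefore given as a description, with no test.

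The organoids came from crypts of the proximal small intestine of mice, were embedded in Matrigel and were sequenced in bulk in 49 libraries. Hyper-organoids (7 libraries) were kept in the 8C medium, in which VPA was at 500 µM and EPZ6438 at 2 µM. Its other inhibitors were Pexmetinib (1 µM), LDN193189 (0.2 µM) and GSK3iXV (0.1 µM), and its growth factors were bFGF at 20 ng/mL, EGF at 50 ng/mL and, at 10%, medium conditioned with R-Spondin 1. ENR-organoids (7 libraries) received R-Spondin 1 at 500 ng/mL, Noggin at 100 ng/mL and the same dose of EGF. The groups that did not choose the members were the 8C medium without VPA (8C-V, 6 libraries, so EPZ6438 alone), the 8C medium without EPZ6438 (8C-E, 7 libraries, so VPA alone), the ENR medium with both compounds at doses the labels do not give (ENR+VE, 3 libraries), and the 8C medium with both compounds but without GSK3iXV, Pexmetinib, bFGF or EGF (3 libraries each). A further 18 libraries held crypts taken directly from C57BL/6 mice, 2 from normal mice and 2 at each of days 1, 2, 3 and 5 after irradiation, with and without VPA and EPZ6438 given to the irradiated mice. Mice used for organoid culture were 6 to 12 weeks old and irradiated mice were 8-week-old females, and the strain behind each organoid library is not given. Replicates were described as mice, 3 for the medium components and 2 for the crypts at day 3. The labels tie no library to a mouse and some groups hold 6 or 7 libraries, so that p-values measure the spread between libraries, some of which may share a mouse.

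Many genes of other tissues are kept silent in an epithelium by modified histones at their starts. Polycomb repressive complex 2, whose catalytic subunit EZH2 is inhibited by EPZ6438, places methyl groups on lysine 27 of histone H3, mostly at starts rich in CpG dinucleotides, and histone deacetylases, which VPA inhibits, remove the acetyl groups that accompany transcription. GSK3iXV inhibits the kinase GSK3, which restrains Wnt signalling, Pexmetinib inhibits the p38 kinase and the receptor TIE2, and LDN193189 inhibits receptors of bone morphogenetic proteins.

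The starts of 7 members are shown, since the members differed in which of the compounds alone went with their transcription and since CpG dinucleotides near the start are compared with other genes further on. Each line gives the 250 bases before the RefSeq transcription start (build GRCm38.p6), 5′ to 3′ on the strand of the gene, with every CpG in capitals; where RefSeq lists 2 starts the one nearest the annotated gene start was taken. Cdkn2a lies at chr4:89294620-89294869 (minus strand), Dusp22 at chr13:30659809-30660058 (plus strand) and Twist1 at chr12:33957421-33957670 (plus strand), and all 3 stood higher with EPZ6438 alone. Gpm6a lies at chr8:54954478-54954727 (plus strand) and Epor at chr9:21963577-21963826 (minus strand), and both stood higher with VPA alone. Itm2a, at chrX:107403361-107403610 (minus strand), had the highest level in the 8C condition, and Lrg1, at chr17:56121947-56122196 (minus strand), had a mean under 1 TPM with each compound alone and with both in the ENR medium.
Cdkn2a: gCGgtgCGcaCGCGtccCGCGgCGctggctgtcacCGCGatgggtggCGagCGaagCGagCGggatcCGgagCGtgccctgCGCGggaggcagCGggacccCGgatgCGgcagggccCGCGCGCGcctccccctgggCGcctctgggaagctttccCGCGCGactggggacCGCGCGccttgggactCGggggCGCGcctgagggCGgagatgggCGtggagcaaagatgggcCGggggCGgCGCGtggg
Dusp22: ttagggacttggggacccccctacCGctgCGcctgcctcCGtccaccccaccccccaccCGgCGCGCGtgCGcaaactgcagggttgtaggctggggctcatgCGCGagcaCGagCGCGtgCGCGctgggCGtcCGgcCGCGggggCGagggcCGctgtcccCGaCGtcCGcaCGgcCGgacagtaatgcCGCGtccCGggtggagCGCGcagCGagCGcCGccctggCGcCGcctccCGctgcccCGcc
Twist1: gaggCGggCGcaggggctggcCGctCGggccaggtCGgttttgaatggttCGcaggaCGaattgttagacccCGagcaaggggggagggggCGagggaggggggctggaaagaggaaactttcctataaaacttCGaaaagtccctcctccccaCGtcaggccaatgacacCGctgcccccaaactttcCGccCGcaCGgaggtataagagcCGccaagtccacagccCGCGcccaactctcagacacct
Gpm6a: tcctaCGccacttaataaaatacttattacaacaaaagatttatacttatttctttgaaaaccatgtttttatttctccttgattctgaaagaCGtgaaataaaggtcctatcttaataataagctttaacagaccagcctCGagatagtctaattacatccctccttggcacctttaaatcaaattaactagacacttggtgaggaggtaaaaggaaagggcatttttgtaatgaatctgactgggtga
Epor: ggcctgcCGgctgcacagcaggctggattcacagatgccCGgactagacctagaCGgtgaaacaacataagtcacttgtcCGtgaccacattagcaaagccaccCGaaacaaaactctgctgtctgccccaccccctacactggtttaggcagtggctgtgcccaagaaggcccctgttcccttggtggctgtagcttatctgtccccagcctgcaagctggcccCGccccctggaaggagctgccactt
Itm2a: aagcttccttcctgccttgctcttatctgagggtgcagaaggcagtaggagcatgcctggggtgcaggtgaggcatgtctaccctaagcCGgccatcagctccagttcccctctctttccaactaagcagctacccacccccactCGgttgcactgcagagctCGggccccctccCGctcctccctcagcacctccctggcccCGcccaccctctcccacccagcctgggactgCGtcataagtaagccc
Lrg1: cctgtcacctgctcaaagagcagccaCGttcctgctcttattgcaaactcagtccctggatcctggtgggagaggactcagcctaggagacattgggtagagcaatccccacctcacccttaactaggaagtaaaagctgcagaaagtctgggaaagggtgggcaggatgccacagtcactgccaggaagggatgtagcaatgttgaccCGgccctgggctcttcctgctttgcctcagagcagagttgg
These windows hold 40 CpGs in Cdkn2a, 38 in Dusp22, 18 in Twist1, 3 in Gpm6a, 6 in Epor, 6 in Itm2a and 2 in Lrg1. The median over the 27025 promoters of the RefSeq table was 6, with quartiles of 2 and 16. These 5 starts do not stand for their sides: in the first 200 bases of the transcript, the 14 members higher with VPA alone had a median of 21.5 CpGs (3 to 35), the 23 higher with EPZ6438 alone 15 (2 to 35) and the 136 not called 16 (1 to 42).

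The number of members at 1 TPM or more was counted in each library. It was 1 to 13 of 173 in ENR, 7 to 24 in 8C-VE, 121 to 138 with EPZ6438 alone, 104 to 123 with VPA alone, 166 to 173 in 8C and 159 to 162 in ENR+VE. Without GSK3iXV, Pexmetinib, bFGF or EGF it was 165 to 171, 168 to 173, 171 to 173 and 170 to 173. These counts did not overlap between the media without the compounds, with 1 compound and with both. The selection itself made them low in ENR and 8C-VE and high in 8C. Of all genes, 11657 to 12335 reached 1 TPM in the ENR and 8C-VE libraries and 11964 to 12758 with 1 compound. In 8C it was 12361 to 13158 of all genes, and these ranges overlapped. The deposited values keep no read numbers, which leaves the depth unknown. The defining markers of intestinal epithelium summed to 10165 to 18764 TPM in the organoid libraries, and those of fibroblasts, endothelium, leukocytes and smooth muscle to at most 2.89, 1.08, 2.85 and 4.79 TPM. The summed level of the 8 markers of enteric neurons and glia was 2.25 to 4.71 TPM in ENR and 8C-VE and 14.7 to 31.1 TPM in 8C, and it moved through Ret and through Uchl1, which is a member, while Sox10 was listed at 0 in every library of the ENR, 8C-VE, 8C and ENR+VE conditions. The part of these cell types in the levels of the members was not tested. In bulk RNA, fewer cells of a type and less RNA per cell cannot be told apart.

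**Figure D1:**
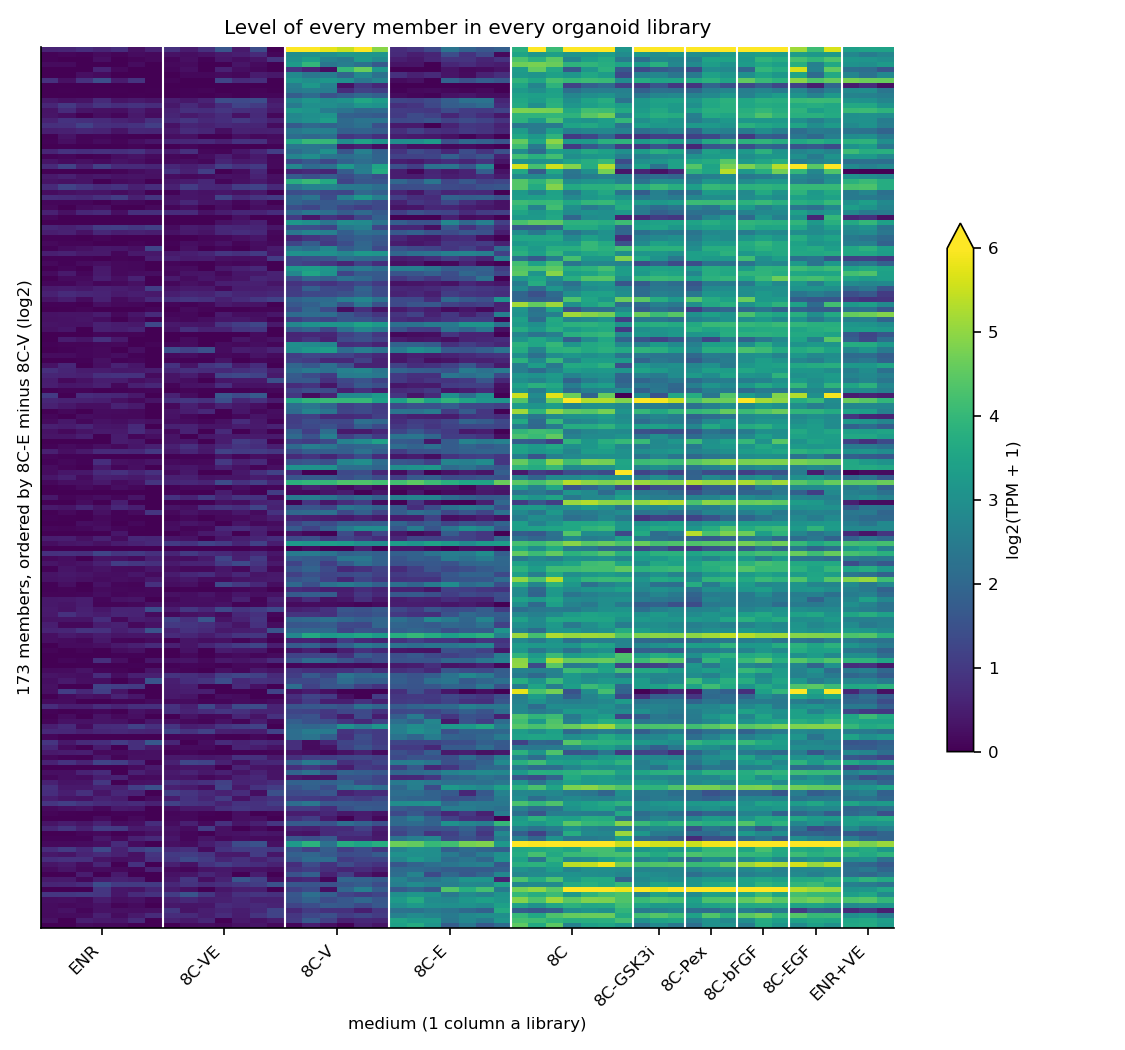
Level of the 173 members (rows, ordered by the difference between VPA alone and EPZ6438 alone) in the 49 organoid libraries (columns, grouped by medium) as log2(TPM + 1). The ENR and 8C-VE columns are dark throughout, the columns with 1 compound are partly lit, at opposite ends of the order, and the columns with both compounds are lit over nearly all rows.

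The levels of the members in the 8C condition spanned 5.02 to 85.4 TPM (means of 7 libraries), with a median of 8.77 TPM. Of the 173, 67 reached 10 TPM, 17 reached 20 TPM and 3 reached 50 TPM. Itm2a, an integral membrane protein of the BRICHOS family (chromosome X, 107397099 to 107403376), led with a mean of 85.4 TPM. Its 8C libraries read 72.9, 60.5, 74.1, 102, 93.9, 152 and 43.0 TPM (replicates 1 to 7), and its ENR libraries lay between 0 and 0.659 TPM with a median of 0.121 TPM. Its 8C-VE libraries reached at most 1.84 TPM, so that the lowest 8C library was far above all 14 libraries without the compounds.

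Cdkn2a, which encodes the cell cycle inhibitors p16 and p19 (chromosome 4, 89274471 to 89294653), had a mean of 67.4 TPM in 8C, and its libraries read 12.5, 97.3, 16.1, 108, 125, 105 and 7.74 TPM. Replicates 1, 3 and 7 were low and the other 4 high, although the lowest was still above the highest library without the compounds (1.97 TPM). Hspb1, a small heat shock protein (chromosome 5, 135887919 to 135889563), read 25.7, 30.9, 21, 87.9, 96.5, 89.3 and 56.7 TPM in 8C and at most 0.922 TPM in ENR. Other members at over 20 TPM included the basement membrane protein Nid1 (31.4 TPM), the actin bundling protein Fscn1 (28.8 TPM), the insulin-like growth factor binding proteins Igfbp3 (27.8 TPM) and Igfbp5 (23.7 TPM), the RNA binding protein Rbpms (27.2 TPM), Megf6 (25.1 TPM), the ciliary transport protein Ift57 (23.5 TPM) and Nup62cl (22.3 TPM). At the lower edge, Sox11 (5.02 TPM), Ephb6 (5.06 TPM) and Bmp4 (5.08 TPM) lay just inside the selection, and Cercam (4.99 TPM) and Dmrt1 (4.96 TPM) lay just outside.

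The members varied among the 8C libraries. Their median coefficient of variation over the 7 libraries was 0.36, and 6 members had one above 1. In 168 of 173 members every 8C library was above the highest of the 14 libraries without the compounds, which held for 4.59% of all genes in the table, a count the selection itself favours. The exceptions were Cd74, Cyp1b1, Ephb6, Igfbp1 and Mcub. Cd74, the invariant chain of MHC class II, read 0.329 to 1.82 TPM in replicates 1 to 6 and 66.1 TPM in replicate 7, and without that library it was no longer a member. Igfbp1, a secreted binding protein of insulin-like growth factors, read 44.9, 6.44, 51.7, 24.5, 2.81, 23.4 and 0 TPM, and replicate 7 was listed at 0. Lrg1, a secreted leucine-rich glycoprotein, read 1.03, 2.00 and 1.18 TPM in replicates 1 to 3 and 32.5, 38.5, 30.2 and 28.7 TPM in replicates 4 to 7. The libraries numbered 1 to 3 lay all above those numbered 4 to 6 in 39 members and all below them in 52, where 19.3% and 15.4% of the 12625 genes tested did so. The labels name no batch for these numbers. With each of the 21 selecting libraries left out in turn, the selection gave 168 to 183 genes, and 143 of the 173 were selected every time.

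The dependence on the compounds was first described as a share of the 8C mean. With EPZ6438 alone the median member stood at 22.1% of its 8C mean, with VPA alone at 18.7% and with both compounds in the ENR medium at 64.1%, against 2.08% in ENR and 3.06% in 8C-VE. With EPZ6438 alone 139 members reached a mean of 1 TPM and 24 reached 5 TPM, and with VPA alone 120 and 20 did so. Both compounds singly brought 105 members to 1 TPM, EPZ6438 alone a further 34 and VPA alone a further 15, while 19 stayed under 1 TPM with either. Every 8C-V library was above the highest of the 14 libraries without the compounds in 109 members (1.81% of all genes) and every 8C-E library in 87 (1.82% of all genes). The libraries without the compounds chose the members, so nothing is read from these counts.

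The rise above the 8C-VE mean with both compounds was larger than the sum of the rises with each compound in 170 of 173 members, with a median ratio of 2.48 and a ratio of at least 5 in 30. In Ifitm1 and Bmp4 the sum was below 0, so that no ratio was formed. For Hspb1 the rise was 58.0 TPM with both against 8.55 TPM with VPA and 2.00 TPM with EPZ6438. For Lrg1 it was 19 TPM against 0.461 and 0.321 TPM. The exceptions were Prkch (ratio 0.843), a kinase of the protein kinase C family, Rbpms (0.858) and Mfhas1 (0.948). Rbpms read 13.3 TPM or more in 8C-V, 10.4 to 23.6 TPM in 8C-E and 17.8 to 39.1 TPM in 8C, and the range of 8C overlapped the other 2. Since a high 8C mean chose the members, the size of the joint rise is a description and was not tested.

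The libraries with 1 compound did not choose the members, and the difference between them was tested (limma on log2(TPM + 1), Benjamini-Hochberg adjustment over 12625 genes, called at an adjusted p under 0.05 and at least 2-fold). All 173 members entered the fit, since their 8C levels count in the filter on the mean over all organoid libraries. With the filter on the 13 libraries compared, 142 entered and the same members were called. With VPA alone 14 members were higher (8.09% of members, against 0.943% of all genes tested), and with EPZ6438 alone 23 were higher (13.3%, against 2.04%). The median log2 difference of the members was -0.05, against 0.06 over all genes, and the differences ran from -4.19 to 2.31.

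Cdkn2a stood furthest to the side of EPZ6438. It read 64.4, 63.9, 54.1, 44.3, 61.0 and 29.8 TPM in 8C-V and 0.698, 0.909, 1.48, 3.94, 2.68, 2.11 and 2.52 TPM in 8C-E, a log2 difference of -4.19 (SE 0.25, adjusted p = 1.719e-07). The groups were far apart, and every library with EPZ6438 alone was above replicates 1, 3 and 7 of 8C. Dusp22, a dual specificity phosphatase, read 6.62 to 8.14 TPM in 8C-V (median 7.46 TPM) and 0.116 to 1.69 TPM in 8C-E (median 0.640 TPM), with a log2 difference of -2.28 (SE 0.19, adjusted p = 4.295e-06). With 6.61 to 10.2 TPM in 8C, its level with EPZ6438 alone reached 88.3% of the 8C mean, the highest such share among the members.

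Sirpa, the receptor of CD47 on phagocytes, read 4.51 to 9.31 TPM in 8C-V (median 6.79 TPM) and at most 0.878 TPM in 8C-E (log2 difference -2.25, SE 0.17, adjusted p = 1.102e-06). Twist1, a transcription factor of mesoderm and of epithelial to mesenchymal transition, read 8.58, 14.5, 4.09, 4.85, 3.74 and 2.18 TPM in 8C-V and at most 0.702 TPM in 8C-E (-2.23, SE 0.30, adjusted p = 2.436e-04). Dmrt2, a DM domain transcription factor, read 2.97 to 6.17 TPM in 8C-V and 0.122 to 0.784 TPM in 8C-E (-1.91, SE 0.17, adjusted p = 7.470e-06). In none of these did a library of one group reach the other. Further members on this side were the potassium channel subunit Kcns3 (-1.86), the actin regulator Enah (-1.66), the imprinted sarcoglycan Sgce (-1.65), the glycine cleavage enzyme Gldc (-1.45), the calcium channel subunit Cacna2d1 (-1.38) and the imprinted adaptor Grb10 (-1.14).

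On the side of VPA, Gpm6a, a membrane glycoprotein of neurons, read 9.67, 12, 7.77, 2.39, 4.09, 2.13 and 3.31 TPM in 8C-E and at most 0.450 TPM in 8C-V (log2 difference 2.31, SE 0.32, adjusted p = 3.307e-04). Epor, the receptor of erythropoietin, read 4.18 to 10.4 TPM in 8C-E (median 7.72 TPM) and 0.458 to 2.19 TPM in 8C-V (2.04, SE 0.23, adjusted p = 5.356e-05). The groups of both genes did not overlap, and their levels with VPA alone were at 47.3% and 48.4% of the 8C mean. Tmem132c (1.60, SE 0.13, adjusted p = 3.711e-06), the ubiquitin ligase family member Trim47 (1.59, SE 0.24, adjusted p = 6.611e-04) and Spata6 (1.58, SE 0.13, adjusted p = 3.395e-06) followed, then Megf6 (1.51), the ligand Gdf11 of the transforming growth factor beta family (1.37), the bicarbonate transporter Slc4a8 (1.08), Fscn1 (1.07) and the G protein subunit Gnai1 (1.01). Spata6 read 6.54 to 9.57 TPM in 8C-E and 1.35 to 2.30 TPM in 8C-V.

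**Figure D2:**
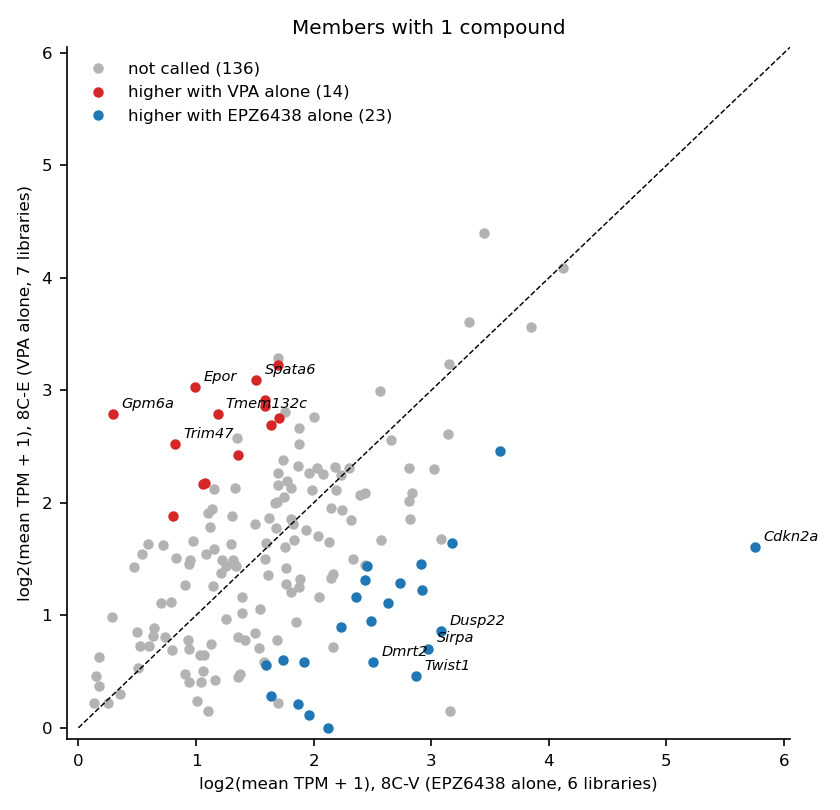
Mean level of each member with EPZ6438 alone (x axis, 6 libraries) and with VPA alone (y axis, 7 libraries), both as log2(mean TPM + 1), with called members coloured and the most changed ones named. Of the 173, 23 lie on the EPZ6438 side, 14 on the VPA side and 136 were not called.

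Libraries with the same number deviated together in the 2 groups. Within numbers 1 to 3, 15 members were higher with VPA alone (1.16% of all genes tested) and 31 with EPZ6438 alone (2.95%), and within numbers 4 to 6 the counts were 13 (1.07%) and 16 (2.40%). With a replicate block, 12 of the 14 and all 23 stayed called. H19, an imprinted long noncoding RNA (chromosome 7, 142575529 to 142578143), read 0.896, 0.505 and 0.159 TPM in replicates 1 to 3 of 8C-V and 15.1, 23.3 and 7.82 TPM in replicates 4 to 6, against at most 0.250 TPM in 8C-E, and was not called. The kinase Nrk showed the opposite order, with 4.20, 4.22 and 4.06 TPM in replicates 1 to 3 of 8C-V and 0.330, 0.472 and 0.159 TPM in replicates 4 to 6.

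The 19 members that stayed under 1 TPM with each compound alone were Lrg1, the interferon-induced Ifitm1, fibronectin (Fn1), Cd74, Raver2, Armcx2, Sp6, the phosphatase Ptpn13, the imprinted Peg3, Layn, Tmem47, the matrix protein Efemp1, Sntb1, Hspa12a, Pgbd5, Slc35f1, Bmp4, the ephrin receptor Ephb6 and the transcription factor Sox11. In ENR+VE 13 of them reached 1 TPM, and the median of the 19 there was 58.8% of the 8C mean. Tmem47 read 0 to 0.432 TPM in 8C-V, at most 0.318 TPM in 8C-E, 3.00 to 11.6 TPM in 8C and 7.70, 10.4 and 5.00 TPM in ENR+VE, so that each group with both compounds stood clear of those with 1. Bmp4, a bone morphogenetic protein, was listed at 0 in all 7 ENR libraries, read at most 1.13 TPM in 8C-VE and 0.405 TPM with either compound, and read 5.18, 4.73 and 3.75 TPM in ENR+VE. Lrg1 was different, with 0.438, 0.146 and 0.152 TPM in ENR+VE.

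Both compounds in the ENR medium brought 161 of 173 members to a mean of 1 TPM and 101 to 5 TPM, and in 161 members every ENR+VE library was above the highest of the 14 libraries without the compounds (7.26% of all genes). Those 14 libraries chose the members, so nothing is read from this count. At the top of the shares were Kcns3 with 179%, Grb10 with 176% and the potassium channel Kcnj8 with 152% of the 8C mean. At the bottom were Cyp1b1 with 0.146%, Cd74 with 0.909% and Lrg1 with 1.28%. The Cd74 share rests on 8C replicate 7 and was 7.96% of the mean of the other 6 libraries. The Lrg1 share rests on 8C replicates 4 to 7 (28.7 to 38.5 TPM) and was 17.5% of the mean of replicates 1 to 3 (1.03, 2.00 and 1.18 TPM), the numbers that ENR+VE carries. Against that mean the shares of Cyp1b1 and Kcnj8 were 0.158% and 459%. Grb10 read 16.2, 12.3 and 12.8 TPM in ENR+VE and 3.27 to 11.2 TPM in 8C, so that every ENR+VE library was above every 8C library.

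The base medium was tested with both compounds present and without the 8C libraries, as ENR+VE against the mean of the 4 omissions from the 8C medium (limma on log2(TPM + 1), Benjamini-Hochberg adjustment). In ENR+VE 5 members were higher (2.89%, against 4.13% of all genes tested) and 31 were lower (17.9%, against 3.15%), with a median log2 difference of -0.36 for the members and 0.03 for all genes. Lrg1 fell furthest, with a log2 difference of -4.07 (SE 0.15, adjusted p = 2.490e-10). It read 30.2, 39 and 36.7 TPM without GSK3iXV, 18.3, 30.3 and 25.5 TPM without Pexmetinib, 23.0, 24.1 and 21.1 TPM without bFGF and 9.04, 8.27 and 5.77 TPM without EGF. Every one of these 12 libraries was above the 3 ENR+VE libraries.

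Igfbp1 was lower in ENR+VE by 3.12 on the log2 scale (log2 difference -3.12, SE 0.59, adjusted p = 7.442e-04), with 0.388, 0.517 and 0.404 TPM there and 1.90 to 59.7 TPM in the 12 omission libraries. Cyp1b1, a cytochrome P450 induced through the aryl hydrocarbon receptor, read 0.0385, 0 and 0 TPM in ENR+VE (-3.07, SE 0.37, adjusted p = 1.556e-05). It was also low without GSK3iXV (0.517, 0.226 and 0.590 TPM) and read 5.81 to 40.1 TPM in the other omissions. Fscn1 read 3.21, 2.88 and 2.18 TPM in ENR+VE and 15.4 to 47.7 TPM in the omissions (-2.89, SE 0.13, adjusted p = 1.916e-09). Efemp1, a fibulin of the extracellular matrix, read 0.678, 0.290 and 0.908 TPM against 3.41 to 39 TPM (-2.83, SE 0.30, adjusted p = 4.778e-06). The 2 sets of libraries did not overlap for any of these genes.

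Other members lower in ENR+VE were Hspb1 (-2.80), Cdkn2a (-2.73), the galactosyltransferase Ggta1 (-2.34), the adhesion receptor Icam1 (-1.98), Fn1 (-1.71), Cd74 (-1.32) and Itm2a (-1.28). Cdkn2a read 9.43, 10.3 and 10.0 TPM in ENR+VE, below its level with EPZ6438 alone in the 8C base. The 5 higher members were Nrk (1.44), Tmem47 (1.32), the heparan sulfate 6-O-sulfotransferase Hs6st2 (1.20), the T-box factor Eomes (1.02) and Nudt10 (1.00). Nudt10 has a near-identical copy, Nudt11, which is also a member, so that the counting could have split reads between them. The count of higher members was 3 without replicate 1 of the Pexmetinib omission or replicate 2 of the EGF omission.

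These calls moved with the numbers of the 8C libraries. In all 5 members that were higher in ENR+VE, every 8C library numbered 1 to 3 was above those numbered 4 to 6, and in 24 of the 31 lower members every one was below. Across the 173 members the difference between the 8C sets and the difference between the media had a Pearson correlation of 0.597, a description over genes that share libraries. The ENR+VE and the omission libraries all carry the numbers 1 to 3. In the order of the deposited columns, however, ENR+VE stands among 8C numbers 1 to 3 and the omissions stand among 8C numbers 4 to 6. The labels do not say what this order marks, so a shared number need not mean a shared set. Over all 173 members the omissions lay at a median log2 difference of -0.20 from 8C numbers 1 to 3 and -0.21 from numbers 4 to 6. In the called members, which a contrast with these omission libraries chose, they lay closer to numbers 4 to 6. For the 31 lower members the median log2 difference was 0.64 from 8C numbers 1 to 3 and -0.42 from numbers 4 to 6, and for the 5 higher members it was -1.64 and -0.22. The contrast of base media therefore cannot be told apart from a difference between these sets of libraries. Beside 8C numbers 1 to 3, ENR+VE was lower on average in 154 of 173 members, with a median log2 difference of -0.58. The 31 lower members (30 of them lower) and the 5 higher members (5 of them lower, Nrk by -0.75 and Tmem47 by -0.31) followed that share, and since these 8C libraries helped choose the members nothing is read from it. The part of the numbers in the calls was not tested.

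**Figure D3:**
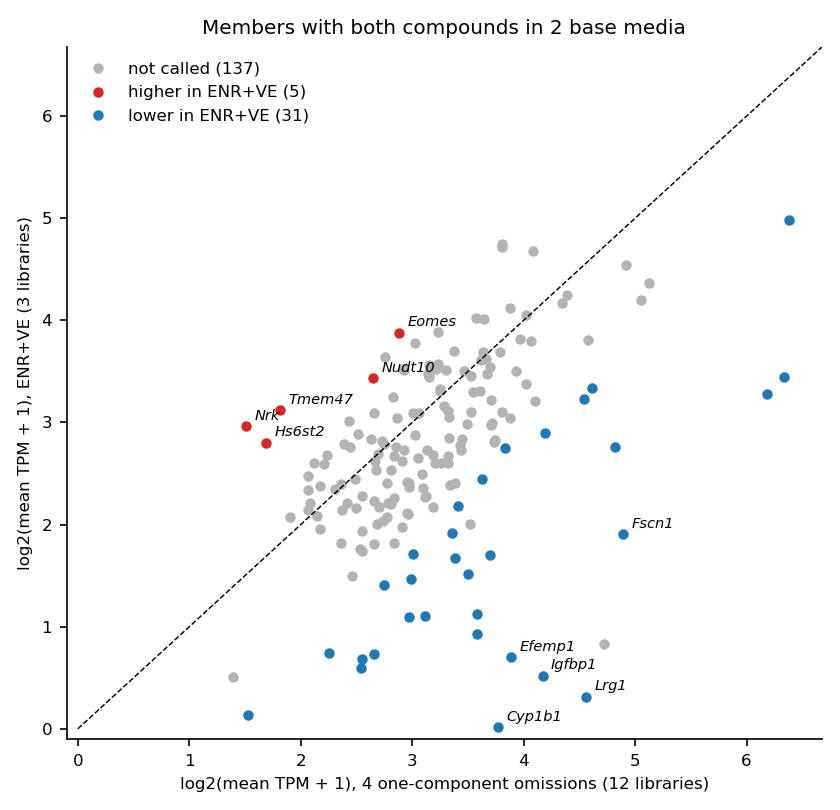
Mean level of each member in the 4 media that lack 1 component of 8C (x axis, 12 libraries) and in ENR+VE (y axis, 3 libraries), both as log2(mean TPM + 1), with called members coloured and the most changed ones named. Of the 173, 31 lie below the diagonal as called, 5 above it and 137 were not called.

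**Figure D4:**
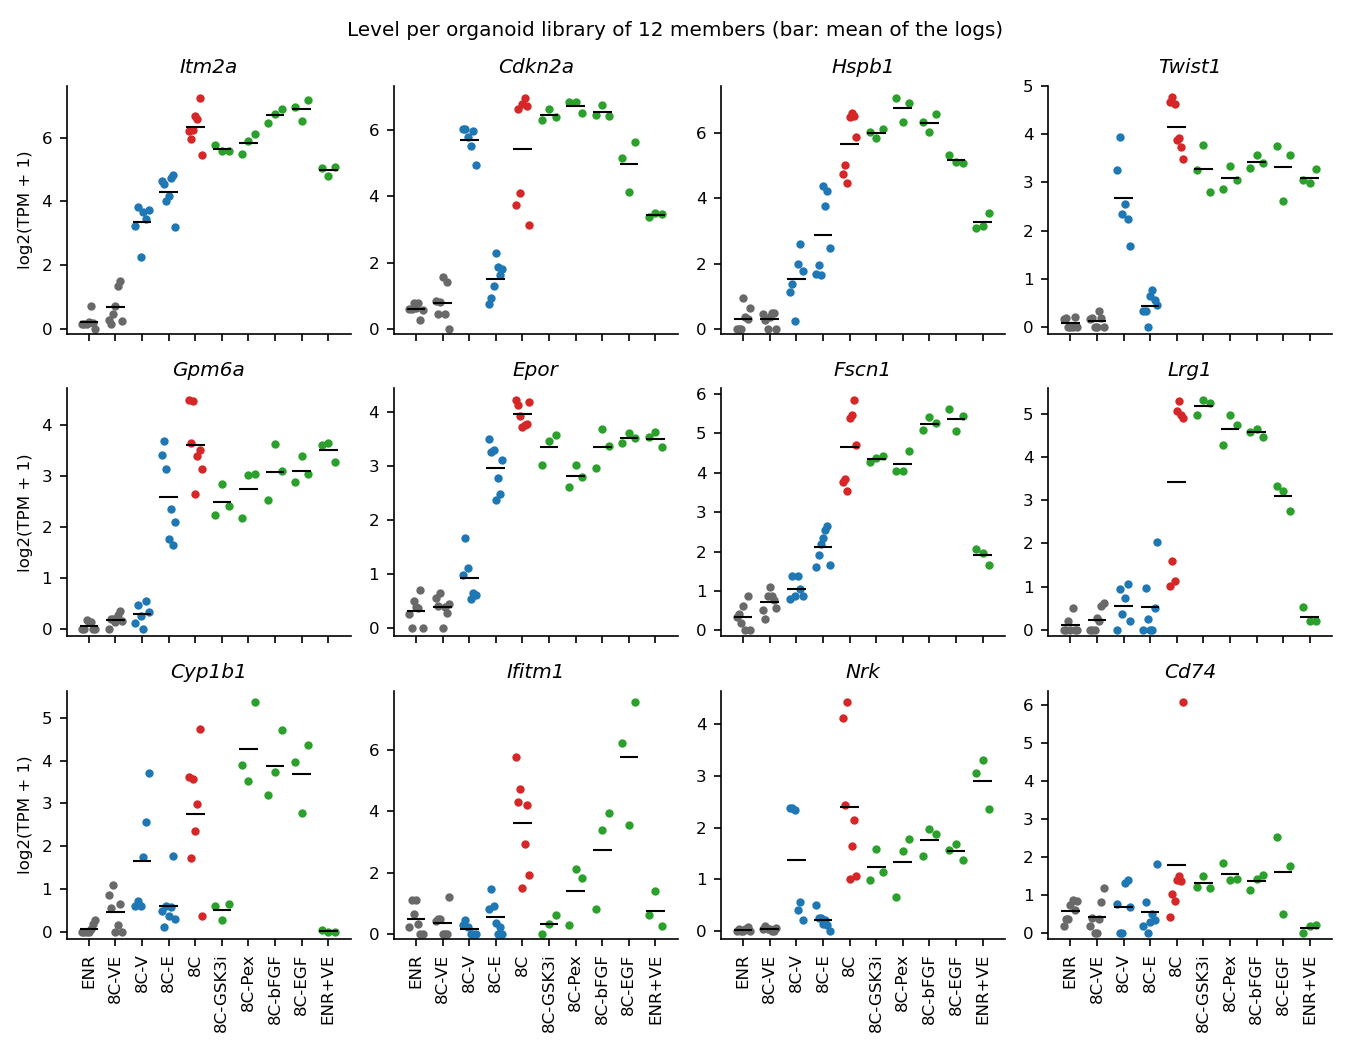
Level of 12 members in each of the 49 organoid libraries as log2(TPM + 1), 1 panel a gene, with a point per library (left to right by number) and a bar at the mean of the logs, grey for ENR and 8C-VE, blue for 1 compound, red for 8C and green for the other media with both compounds. Cdkn2a and Twist1 stand higher with EPZ6438 alone and Gpm6a and Epor with VPA alone, and in 8C replicates 1 to 3 lie below the other 4 for Lrg1.

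Single components of the 8C medium were compared by setting each omission against the mean of the other 3 in the same fit, so that the 4 comparisons share libraries and a change in one pushes the others the opposite way. Without GSK3iXV 14 members were lower (0.404% of all genes tested) and 2 were higher (0.816%). Cyp1b1 fell by 3.42 on the log2 scale (SE 0.38, adjusted p = 3.1e-04), Ifitm1 by 2.99 (SE 0.75, adjusted p = 0.0320), Igfbp3 by 1.84 (SE 0.37, adjusted p = 0.00999), Fn1 by 1.49 and Nudt10 by 1.32. Ifitm1 read 0, 0.265 and 0.553 TPM without GSK3iXV and 0.240 to 188 TPM in the other omissions, with overlap. Igfbp3 read 9.66, 3.79 and 9.79 TPM, below each of the other 9 libraries (10.2 to 74.6 TPM). The morphogen Shh was also lower (-1.01), as were the imprinted Peg3 (-1.22) and Peg12 (-1.08). Nid1 (1.29) and Lrg1 (1.07) were higher. Without replicate 1 of the GSK3iXV omission 7 members were lower, and Lrg1 but not Nid1 was called higher. Without its replicate 2 neither was.

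Without EGF 10 members were higher (0.895% of all genes tested) and 8 were lower (2.07%). Ifitm1 rose by 4.30 (SE 0.75, adjusted p = 0.00158), with 74.8, 10.7 and 188 TPM, and H19 by 1.86 (SE 0.53, adjusted p = 0.0226), with 47.8, 5.36 and 22.3 TPM. The G protein regulator Rgs10 (1.58), the ubiquitin hydrolase Uchl1 (1.57), Igfbp3 (1.56), Nudt10 (1.43), Ephb6 (1.14), Sox11 (1.09) and Sirpa (1.04) were higher too. Ggta1 read 2.46, 2.07 and 2.09 TPM without EGF and 8.38 to 23.5 TPM in the other 9 libraries (-2.11, SE 0.29, adjusted p = 2.52e-04). Nid1 (-1.73), Lrg1 (-1.70), Cdkn2a (-1.60), Efemp1 (-1.28) and Hspb1 (-1.18) were lower. Replicate 2 of the EGF omission was the lowest of the 3 in Ifitm1, H19 and Igfbp3, and without it 20 members were higher.

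Without Pexmetinib 2 members were higher (0.626% of all genes tested), Efemp1 (1.72) and Cyp1b1 (1.57), and Igfbp5 alone was lower (-1.11, 0.238%). Igfbp5 read 3.37, 14.4 and 8.84 TPM there and 12.8 to 21.7 TPM in the other omissions. None of these 3 calls was made by limma without replicate 1 of the Pexmetinib omission, and 8 other libraries left out singly gave 1 higher member. The call of Igfbp5 was also lost without replicate 2 of the bFGF omission, 1 or 3 of the EGF omission, 2 or 3 of the GSK3iXV omission, 3 of the Pexmetinib omission or 1 of ENR+VE. Without bFGF no member was called by limma in either direction (0.00792% and 0.214% of all genes tested). An unadjusted p under 0.05 was found in 48 members, a count with no share over all genes beside it. The log2 difference was above 0 in 160 of 173 members (60.5% of all genes tested). Its median was 0.26 for the members and 0.03 for all genes, in a comparison that shares libraries with the other omissions.

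By role, 39 members were in at least 1 of the lists examined. The members were 1.89% of all genes under 1 TPM without the compounds, the share to set beside each list. Of 374 developmental transcription factors in the table, 247 were under 1 TPM without the compounds and 7 of these (2.83%) were members, among them Twist1, Msx3, Tcf15, Sox14, Tcf7l1 and Sox11. The median of the 7 was 23.8% of the 8C mean with EPZ6438 alone, 8.94% with VPA alone and 68.1% in ENR+VE, and Twist1 was among those called higher with EPZ6438 alone. Msx3, a homeobox factor, read 6.64 to 11.7 TPM in 8C and 10.2, 7.11 and 8.29 TPM in ENR+VE. Tcf15, a factor of the paraxial mesoderm, read 19, 21.1 and 15.9 TPM without EGF and 3.08 to 15.9 TPM in 8C. Sox14 read 0.574, 0.763 and 0.199 TPM in ENR+VE and was lower there (-1.60).

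Of 42 imprinted genes, 26 were under 1 TPM without the compounds and 5 of these (19%) were members, Peg12, H19, Grb10, Sgce and Peg3. Sgce and Grb10 were higher with EPZ6438 alone. Sgce read 1.90 to 3.30 TPM in 8C-V, 0.0466 to 0.296 TPM in 8C-E and 5.41 to 10.0 TPM in 8C, so that the 3 groups did not overlap. Peg12 read 1.34 TPM in 8C replicate 7 and 4.40 to 16.3 TPM in replicates 2 to 6. It was highest in replicate 1, with a mean of 16.5 TPM over replicates 1 to 3. In ENR+VE it read 10.5, 15.9 and 11.7 TPM.

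Among 608 ligands and receptors, 414 were under 1 TPM without the compounds and 10 of these (2.42%) were members. Inha, the inhibin alpha subunit, was listed at 0 in all 7 ENR libraries and read 12.4 to 22.0 TPM in 8C. It read 3.97 to 7.97 TPM with EPZ6438 alone and 1.20 to 5.85 TPM with VPA alone, and these overlapped. The netrin family member Ntng2 read 9.16 to 21.8 TPM in 8C and at most 2.81 TPM with either compound. Gdf11 read 8.45 to 18.9 TPM and the growth factor Pdgfc 6.14 to 11.0 TPM in 8C. Fzd3, a Wnt receptor, and Chrm4, a muscarinic receptor, were also members. Gdf11 was the one of the 10 called between the compounds.

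Of 718 channels and transporters, 359 were under 1 TPM without the compounds and 10 of these (2.79%) were members. Kcnj8 read 25.9 to 34.5 TPM in 8C replicates 4 to 6 and 4.14 to 10.1 TPM in the other 4, and 22.9, 24.4 and 28.6 TPM in ENR+VE. The gap junction protein Gja1 and the chloride cotransporter Slc12a4 belonged to the same list.

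Of 117 matrix, mesenchyme and cytoskeleton genes, 99 were under 1 TPM without the compounds and 5 of these (5.05%) were members, Nid1, Fn1, the lysyl oxidase Loxl2, Efemp1 and the protease Adamts1. Nid1 read 9.70 to 15.6 TPM with EPZ6438 alone and 7.57 to 15.9 TPM with VPA alone, close to each other, and 5.30 to 65.2 TPM in 8C. Fn1 read 31.1 and 20.6 TPM in 8C replicates 1 and 3 and 1.29 to 9.63 TPM in the rest. Gng2 and Uchl1 were the 2 members among 96 neuronal and secretory vesicle genes, 56 of which were under 1 TPM without the compounds (3.57%). None of 97 germ cell and pluripotency genes and none of 41 genes of stomach, pancreas and other foregut organs was a member. Of these, 83 and 27 were under 1 TPM without the compounds, and a count of 0 among so few is near the 1.89% over all genes. In all, 134 members were in none of these lists.

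Further groups were put together after the members' names and values were seen. The binding proteins Igfbp1, Igfbp3 and Igfbp5 stood at 22.0 to 27.8 TPM in 8C, and their median was 20.7% of the 8C mean in ENR+VE, a value known when the group was made. Igfbp3 read 6.18, 5.10 and 5.97 TPM there. Among 6 surface and secreted proteins of immunity and inflammation (Icam1, Cd74, Cd40, Lrg1, Ifitm1 and Sirpa), the median share in ENR+VE was 11.9%, a value known when the group was made. The 4 genes of cilia and Hedgehog signalling (Shh, Evc2, Ift57 and Ttc8) had a median share of 76.1%, 8 other transcriptional regulators one of 84.3%, 10 kinases and phosphatases one of 71.0%, 9 actin, spectrin and adhesion genes one of 70.8% and 8 enzymes of glycan synthesis one of 60.8%.

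What the selection did not use was the sequence at the start of the transcript. In the first 200 bases of the longest annotated transcript (GENCODE vM21), the 173 members had a median of 16 CpG dinucleotides with quartiles of 10 and 23, and 130 (75.1%) had 10 or more. The 8124 silent protein coding genes had a median of 4, with 25.7% at 10 or more, and the 9613 protein coding genes at 5 TPM or more in ENR had a median of 15, with 72.6%. All 21245 protein coding genes of the table with a sequence had a median of 9 and 48.8%. By this measure the members were closer to the genes transcribed in ENR than to the silent ones, a description with no test. Of the 173, 172 were protein coding and 1, H19, was a long noncoding RNA. On chromosome X lay 16 members (9.25%), against 3.49% of the table and 4.98% of silent genes. An exon of 37 members was overlapped by a gene on the other strand and of 10 by one on the same strand, and the sources used here do not state whether reads were counted by strand.

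**Figure D5:**
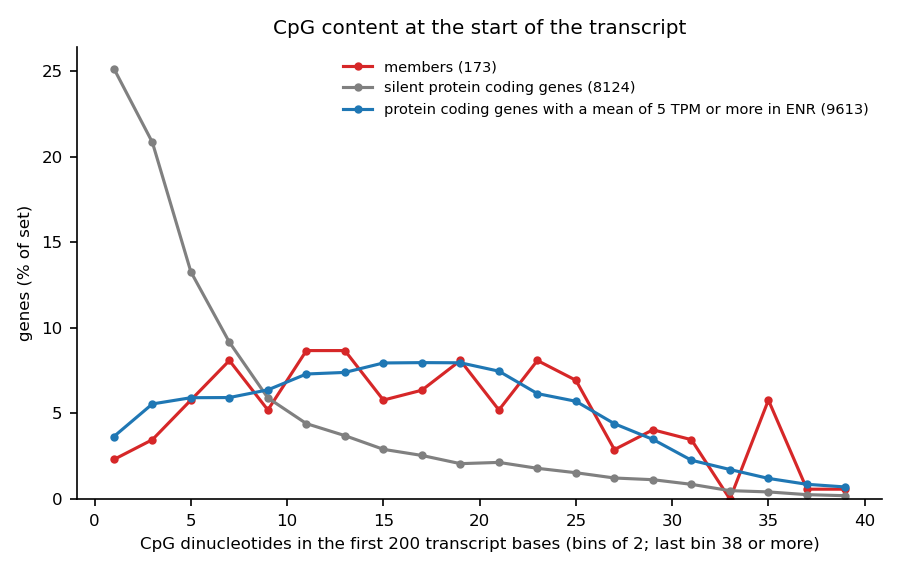
CpG dinucleotides in the first 200 bases of the transcript (x axis, bins of 2) as a share of the genes in each set (y axis, %), for the 173 members, 8124 silent protein coding genes and 9613 protein coding genes at 5 TPM or more in ENR. The silent genes peak at the left, and the members follow the transcribed genes over the higher counts.

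The genes that encode the silencing machinery were listed as the pathway the compounds act on or beside. Of 50 listed genes of Polycomb complexes, histone deacetylases and their partners, H3K9 methyltransferases and DNA methylation, 49 were tested and none was called by limma between the single compounds or between the base media. At an unadjusted p under 0.05 there were 6 and 22, and at an adjusted p under 0.05 without a minimum fold there were 1 and 16, where 9.36% and 42.7% of all genes tested passed. Their log2 differences ran from -0.75 to 0.80 between the compounds and from -0.54 to 0.87 between the base media.

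In crypts the members were mostly under 1 TPM. In each of the 18 libraries 4 to 38 members reached 1 TPM, 120 stayed under 1 TPM in every group, and 18 passed the filter on the mean and were tested (limma on 10802 genes). The crypt table sums to less than the organoid table, so levels were not compared between them. VPA and EPZ6438 after irradiation gave no called member by limma in either direction (3.54% of genes were called higher and 0.00926% lower), with 6 members at an unadjusted p under 0.05. At an adjusted p under 0.05 without the minimum fold, Hspb1 (0.69), Ssbp2 (0.64), Prkch (0.52) and Rbpms (0.34) were higher with the compounds, 4 of 18 members where 54.8% of all genes tested were. The median log2 difference was 0.16 for the 18 members and 0.36 for all genes, and with quantile normalization (22 members tested) it was -0.28 and -0.03 and with scaling to the 75th percentile (20 members) -0.11 and 0.06. After irradiation alone, St6galnac6 (1.50) and Samd12 (1.01) were higher than in normal crypts (2.23% of all genes tested), and Rgs10 (-1.43), Ifitm1 (-1.35), Gng2 (-1.14) and Cd74 (-1.03) were lower (14.3%). All genes had a median of -0.44 in that comparison, and with quantile normalization the counts were 6 higher (5.67% of all genes tested) and 0 lower (4.88%), of 22 members tested. Without normal replicate 1 there was 1 lower member (20.1% of all genes tested), without irradiated day 3 replicate 2 there were 2, and without irradiated replicate 2 of day 1 or of day 2 there was 1 higher member. The 9 leukocyte markers summed to 57.9 to 100 TPM in normal crypts and 3.75 to 54.8 TPM in irradiated crypts without the compounds. Their part in these calls was not tested. Cd74 read 774 and 463 TPM in normal crypts and 75.6 to 99.9 TPM in the 4 libraries of day 5. It was not lower on every day after irradiation alone. Its level lay between the 2 normal libraries at day 1 and above both at day 2. The call of Cd74 is therefore one of the average over 4 days, and its irradiated and normal libraries overlapped.

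The irradiated crypts with the compounds at day 3 stood apart, a pattern noticed after the values were seen. In 30 of 173 members (17.3%) both libraries of this group were above the other 16 crypt libraries, which held for 2.51% of all genes and 3.52% of silent genes. No other crypt group held more than 5. The test of the compounds at day 3 alone, on the 18 members that passed the filter, ran the other way. It gave 2 higher members, Rbpms and St6galnac6, where 31.6% of all genes tested were higher, with a median log2 difference of 0.43 for the members and 0.69 for all genes. Of the 30, 12 were at 1 TPM or more in both libraries. Hspb1 read 10.6 and 9.62 TPM against at most 5.96 TPM elsewhere, and Icam1 read 8.56 and 9.80 TPM against at most 4.95 TPM. Rbpms read 4.27 and 5.10 TPM against at most 2.83 TPM, and the transcription factor Nfe2l3 read 3.31 and 2.52 TPM against at most 1.39 TPM. Cdkn2a (0.0841 and 0.0535 TPM) was not among them, and Itm2a (1.87 and 2.54 TPM) was below the irradiated crypts without the compounds at day 3 (2.66 and 2.63 TPM). More genes of any kind reached 1 TPM in these libraries (10692 to 10712) than at day 3 without the compounds (8152 to 8564), while the other crypt libraries ranged from 9370 to 11089. The 8 fibroblast markers summed to 7.22 to 21.9 TPM against 4.24 to 5.32 TPM without the compounds, with 5 of the 8 under 1 TPM in both libraries, and the 9 leukocyte markers to 32.1 to 57.5 TPM against 22.2 to 54.8 TPM. The part of these in the result was not tested.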

How the data were processed

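Crypts and organoids were sequenced in bulk (NEBNext Ultra libraries, Illumina). According to the submitters' processing notes, the authors trimmed reads with Trimmomatic 0.39, aligned them to mm10 with STAR 2.7.3a and counted them with featureCounts, and they deposited TPM values, whose derivation from the counts and depth are not given in the sources used here. The deposited TPM values were used without further scaling. Members and gene lists were chosen with earlier results of these data known. Tests used limma 3.58.1 in R 4.3.3 (moderated by trend, robust) on log2(TPM + 1) over genes with a mean of 1 TPM or more across the 49 organoid or 18 crypt libraries, with Benjamini-Hochberg adjustment over all genes tested and calls at an adjusted p under 0.05 and 2-fold or more. A fold on this scale understates the change of low genes. The 8C, ENR and 8C-VE libraries entered the filter but no fit, except the alternative with all 10 groups. The fits covered only the groups compared, and crypt effects were averaged over 4 days. In the 8C-V and 8C-E libraries, same-numbered libraries deviated together (6 pairs, correlations 0.659 to 0.728), so the numbers were read as pairing them, and the fit with a replicate block was an alternative. Tested on simulated data with a log2 change of 2 in 200 genes, the fit recovered 194 of 200 for the single compounds (12514 genes) and 192 of 200 for the base medium (12516 genes). For the compounds in crypts it recovered 185 of 200 (10620 genes). The unchanged genes called were 0, 2 and 3 in turn. Named genes were the 12 members with the highest 8C mean, up to 4 per role list, the 5 largest called differences in each direction of a comparison, 3 genes on each side of the 8C threshold, and the 3 highest and 3 lowest shares in ENR+VE. Other members were named as examples after their values were seen. A few genes that this rule names are not reported here. CpGs were counted on GRCm38.p6. The RefSeq promoter table held 133 of 173 members (76.9%), under 80%, so no promoter comparison over the set was made. Alternatives were another pseudocount, filter, scaling, design and replicate left out.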

Additional observations from a re-analysis of the deposited data

Results flagged for a closer look

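In 8 of 176 sets of libraries examined, 1 library stood apart from the rest of its group by the gap to its nearest neighbour, and chance gives about 1 in 20. In 8C replicate 7, Cd74 was at 66.1 TPM, above the other 6 libraries, and Dmrt2 (1.50 TPM), Ephb6 (0.267 TPM) and the number of members at 1 TPM or more (166) were below them. With VPA alone, Trim47 (11.7 TPM) and Kcnj8 (5.10 TPM) stood high in replicate 7, Cyp1b1 (2.45 TPM) in replicate 6 and Sox11 (1.28 TPM) in replicate 3.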

How the results depend on the processing

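Of 1139 values of 46 gene results under the alternatives below, none reversed, 1061 gave the same call and 78 were not past the threshold. The selection gave 105 genes after quantile normalization, 67 with a minimum of 10 TPM in 8C, 326 with 3 TPM, and 168 to 183 with 1 library left out. Counts below are members called higher and lower. With a mean of at least 5 TPM, they were 9 and 10 (single compounds), 1 and 14 (base medium), 3 lower (without GSK3iXV), 0 higher (without Pexmetinib), 4 higher (without EGF), and 0 and 1 (crypt irradiation), since fewer genes were tested. With no minimum mean, 8 were lower without GSK3iXV, and 1 and 0 without Pexmetinib. With no minimum fold, they were 37 lower, 22 and 79, 5 and 32, 5 and 11 (without Pexmetinib), 40 and 16 (without EGF), 4 higher with the compounds in crypts and 6 higher after irradiation. With a pseudocount of 0.1, 37 were lower between the single compounds, 8 higher between base media, 2 lower without Pexmetinib, 1 higher with the compounds in crypts and 5 higher after irradiation. With all 10 groups in the fit, 0 and 7 were called without GSK3iXV, 1 higher without Pexmetinib and 3 lower without EGF. Scaling to the upper quartile gave 3 higher between base media, and 5 and 0 after irradiation. Quantile normalization gave 2 lower without Pexmetinib, and 6 and 0 after irradiation. Day 3 alone gave 2 higher with the compounds, of 18 tested, where 31.6% of all genes were. The cause of the other changes was not tested.

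With 1 library left out, counts were 10 to 15 and 22 to 26 (single compounds), 3 to 6 and 31 to 37 (base medium), 1 to 2 and 7 to 18 (without GSK3iXV), 0 to 3 and 0 to 2 (without Pexmetinib), 7 to 20 and 7 to 9 (without EGF), and 1 to 3 and 1 to 4 (irradiation). They stayed at 0 without bFGF and for the compounds in crypts. With a replicate block they were 16 and 26, 5 and 32, 2 and 18, 2 and 1, 0 and 0 (without bFGF), 11 and 8 (without EGF), 0 and 0 (crypts with the compounds) and 2 and 4. In the base medium libraries 24 of 30 same-numbered pairs correlated above 0.1, with a mean of 0.297 against -0.147 for other numbers. Of these 15 libraries, 13 correlated best with a library of their own number. In the crypts 30 of 72 pairs were above 0.1, with a mean of 0.0764 against -0.0764, and 16 of 18 libraries did so. The main fits left out this partial pairing by number. Depth is unknown, so low levels carry no counting error.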
